A study of Mus musculus with 8 samples.

Results

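The genes described here are 51 genes that license origins of DNA replication and build the replication fork, among 36095 features on the arrays. They were taken by symbol, older or newer, from the non-control probes, and 1 probe stood for each gene, the one brightest on average over the 8 arrays. All 51 had a probe and all 51 were among the 19818 genes detected well enough to be tested. They were compared between plasmacytoid dendritic cells (pDC) that carry the surface protein Sca-1 (Sca-1+, 4 samples) and pDC that lack it (Sca-1-, 4 samples), each sample on 1 single-colour Agilent array. Cells of both groups came from female BALB/c mice and were grown in vitro from bone marrow precursors with mFlt3-L, the mouse ligand of the Flt3 receptor. They were then sorted magnetically and by flow cytometry and lysed directly, and no stimulus is named for either group. The groups are sort gates, so Sca-1- or Sca-1+ is a sort and not an engineered allele. Whether same-numbered Sca-1+ and Sca-1- samples came from the same culture is not stated in the labels. RNA (100 ng per sample) was amplified and labelled with Cy3. The study's title asks whether Sca-1 marks stages of pDC development, and the arrays compare the sorted fractions.

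Replication starts in a fixed order. The origin recognition complex (ORC) binds DNA, and Cdc6 and Cdt1 then load the MCM helicase, a step that geminin blocks once S phase has begun. The kinase Cdc7 with Dbf4, together with Mcm10, Cdc45 and the GINS complex, turns the loaded helicase into a moving one, and polymerases, the sliding clamp and its loader follow. Dividing haematopoietic precursors use these genes, many of which are targets of E2F transcription factors, while mature pDC divide little.

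A level below is a log2 processed signal minus the 75th percentile of its array, so it compares samples for 1 probe and not 1 gene with another. Between 45.9% and 54.9% of spots per array were well above background, and 50 of the 51 genes were so on all 8 arrays. The exception, Pola2, passed that mark on 3 of 4 Sca-1+ arrays and all 4 Sca-1- arrays. Ly6a, which encodes Sca-1, was 25.1-fold higher in Sca-1+ samples, as a check of the labels. All 13 pDC markers (among them Siglech, Bst2 and Tcf4) were detected, and limma called 0 of them (2 at an unadjusted p under 0.05), or 3 as higher with the slide as a block (Irf7, Tlr7 and Ccr9). Same-numbered Sca-1+ and Sca-1- samples lay on the same slide. The slide of replicate 4 was scanned on another day with another extraction protocol, so values are also given within slides. Whether the replicates were separate cultures or animals is not stated in the labels. The p-values therefore reflect the spread among these 8 samples, which could be technical.

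Replication genes were lower in Sca-1+ pDC across most steps of the pathway. Of the 51 genes, 25 were lower and 0 higher in limma with Benjamini-Hochberg adjustment over all tested genes (threshold 0.05), a share of 49.0%. Over all tested genes the same fit called 1.58% lower and 0.126% higher. The median difference, Sca-1+ minus Sca-1-, was -1.01 on the log2 scale, against 0.03 over all tested genes. With normexp background correction (offset 50) followed by quantile normalization it was -0.65 for the 51 genes. Values given below for normexp include both steps. Of the 51 differences 50 were negative, and 37 of the genes had an unadjusted p under 0.05 in limma. Over all 19818 tested genes, 8842 differences were negative and 1776 genes had such a p. In bulk samples fewer cells of a type and less RNA per cell cannot be told apart. The 51 differences ranged from -2.22 for Cdc6 to 0.13 for Orc5, and 24 of the 25 called genes differed at least 2-fold. With the slide as a block, 35 genes were lower and 0 higher, where that fit called 4.12% of all genes lower and 2.1% higher. For 35 genes all 4 Sca-1+ samples lay below all 4 Sca-1- samples, a pattern seen in 5.03% of all tested genes.

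**Figure D1:**
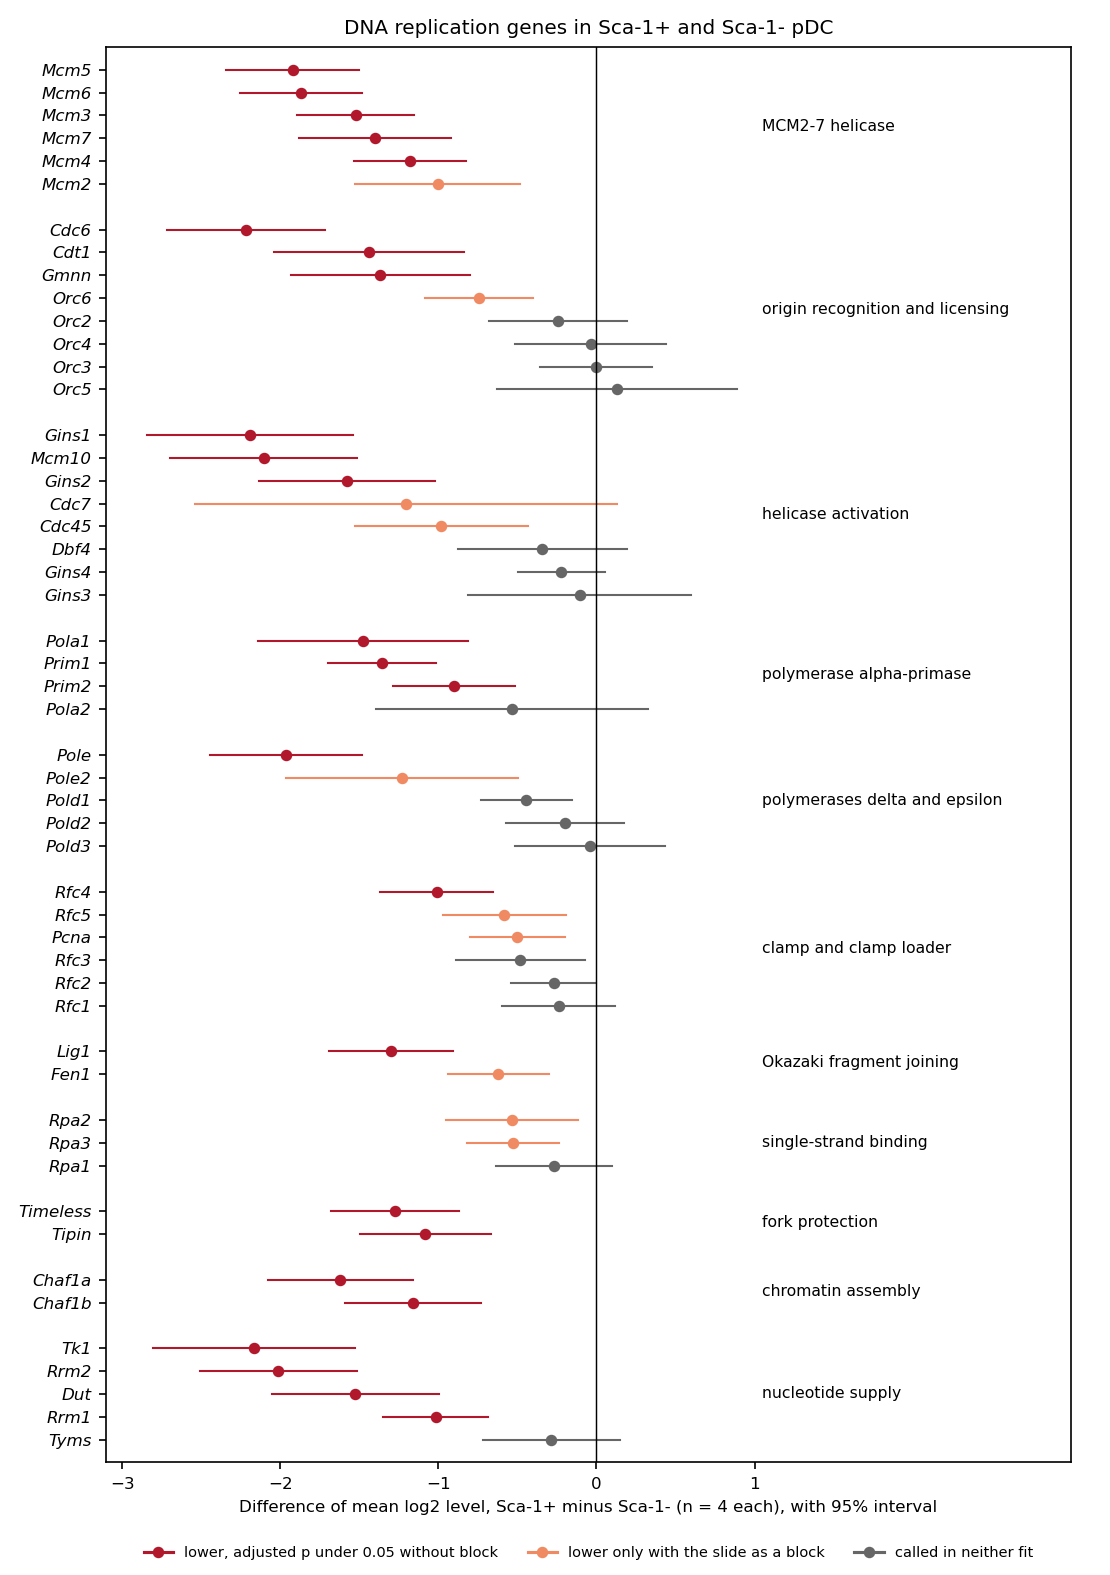
Difference of the mean log2 level, Sca-1+ minus Sca-1- (x axis), for each of 51 replication genes (y axis, by role), with 95% confidence intervals from the unblocked limma fit (n = 4 each). Red points mark the 25 genes called lower, orange points the 10 genes called lower only with the slide as a block, and grey points the 16 genes called in neither fit.

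The count depended on the probe filter and on single samples. Testing all genes, dim probes included, left 15, and the calls of Mcm7, Cdt1, Gmnn, Gins2, Pola1, Prim2, Rfc4, Tipin, Chaf1b and Rrm1 ended. The Pola1 call also ended with scaling on detected probes, with every probe tested on its own and with the percentile taken over spots. Leaving out Sca-1+ replicate 3 gave 14 lower calls, as did leaving out replicate 1 or 2 of the Sca-1- samples, while 26 were called when Sca-1- replicate 4 was left out. The 14 genes kept in every one-sample omission were Mcm3, Mcm4, Mcm5, Mcm6, Cdc6, Mcm10, Gins1, Prim1, Pole, Lig1, Timeless, Chaf1a, Rrm2 and Tk1. The other 11, lost in 1 or more of them, were Mcm7, Cdt1, Gmnn, Gins2, Pola1, Prim2, Rfc4, Tipin, Chaf1b, Rrm1 and Dut. Without both samples of replicate 1, 2 or 3 the count was 0, and without both of replicate 4 it was 34. The median over the 51 genes stayed between -1.10 and -0.93 in these omissions.

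Short stretches of promoter are shown for 6 genes from the first steps of the pathway, since the same E2F-type letters occur in genes that fell and in genes that were not called. Each stretch lies upstream of the annotated start, is written 5′ to 3′ on the gene's strand, comes from RefSeq (GRCm38.p6), and has the motif in capitals.
Mcm5 (called lower, chr8:75109336-75109387, plus strand): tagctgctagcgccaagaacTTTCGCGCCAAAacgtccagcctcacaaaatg
Mcm6 (called lower, chr1:128359725-128359835, minus strand): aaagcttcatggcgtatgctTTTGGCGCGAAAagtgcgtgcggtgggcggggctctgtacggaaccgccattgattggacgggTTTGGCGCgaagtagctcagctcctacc
Cdc6 (called lower, chr11:98907993-98908040, plus strand): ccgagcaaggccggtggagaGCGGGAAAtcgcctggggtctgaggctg
Orc3 (not called, chr4:34614956-34615003, minus strand): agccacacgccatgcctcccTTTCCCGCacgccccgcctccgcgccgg
Pola1 (called lower, chrX:93632266-93632313, minus strand): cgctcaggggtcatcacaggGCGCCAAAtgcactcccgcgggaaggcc
Gins3 (not called, chr8:95633498-95633545, plus strand): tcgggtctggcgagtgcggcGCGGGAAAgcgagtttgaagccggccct

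The motifs searched were TTTCCCGC, TTTGGCGC, TTTCGCGC and TTTGCCGC, on both strands and with overlaps allowed, in windows from 250 bases before to 50 bases after the start. In Mcm5 and at the first site of Mcm6 a pair of motifs on opposite strands overlaps. RefSeq windows matched 42 of the 51 genes, and where a gene had several the first listed was used. An E2F-type motif was found in 13 of the 42 (31.0%), against 3.94% of the 10223 tested genes with a window and 2.32% of all 27025 genes with one. Among the 18 genes with a window that were called lower, 7 had a motif (38.9%), and among the 24 not called, 6 had one (25%). The letters TTTGAA or TTCGAA, the cell cycle homology region that is common in promoters of mitotic genes, were found in 8 of the 42 windows (19.0%). The same letters occurred in 14.4% of windows of tested genes and in 19.4% of all 27025 genes with a window. They were in 1 of the 18 windows of called genes and 7 of the 24 others. A match says only that these letters occur in the window. Mcm4, Gmnn, Gins1, Gins2, Gins4, Prim2, Pole, Rfc2 and Tipin had no window in the table.

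Genes of the MCM2-7 helicase, the ring that unwinds DNA at the fork, were lower as a group. Of 6 genes 5 were called lower, with a median difference of -1.46, and blocking by slide gave all 6. Mcm6 (probe on chromosome 1, 130228178 to 130228237, mm9) had levels of 3.25, 3.12, 2.96 and 3.14 in Sca-1+ replicates 1 to 4, against 5.36, 5.06, 4.83 and 4.69 in Sca-1- replicates 1 to 4. Every Sca-1+ sample was at least 1.54 below the Sca-1- sample of its own slide, and the groups did not overlap. The Mcm6 difference was -1.87 ± 0.17 SE, or 3.65-fold lower (limma adjusted p = 0.00503).

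Mcm5 (chromosome 8, 77651350 to 77651410, mm9) had levels of 1.95, 1.84, 1.53 and 1.61 in Sca-1+ replicates, against 4.01, 3.68, 3.65 and 3.27 in Sca-1- replicates. The groups lay apart, and Sca-1- replicate 4 was the lowest of its group. The difference was -1.92 ± 0.18 SE (3.78-fold lower, limma adjusted p = 0.00503). Mcm3 fell by 1.52, Mcm7 fell by 1.40 and Mcm4 fell by 1.18 on the log2 scale. Mcm2, the remaining subunit, had levels of 0.99, 1.18, 0.87 and 1.80 in Sca-1+ replicates and 2.28, 1.94, 2.11 and 2.53 in Sca-1- replicates. Its groups did not overlap either, although replicate 4 was the highest in both. The Mcm2 difference of -1.005 ± 0.23 SE did not pass (limma adjusted p = 0.0927) but did with the slide as a block (adjusted p = 0.0151).

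Among the genes that mark and license origins, the loaders differed from the origin recognition subunits in their values. Cdc6, the ATPase that brings the helicase to ORC, had the lowest difference of the 51 genes in the unblocked fit. With normexp Tk1 was lowest instead (-1.93), and with array weights Gins1 was (-2.48, against -2.45 for Cdc6). Cdc6 levels (chromosome 11, 98782986 to 98783045, mm9) were -2.03, -2.66, -2.91 and -2.31 in Sca-1+ replicates, against -0.13, -0.14, -0.16 and -0.61 in Sca-1- replicates. The groups were more than 1 log2 unit apart, with Sca-1- replicate 4 below the other Sca-1- samples. The Cdc6 difference was -2.22 ± 0.22 SE (4.65-fold lower, limma adjusted p = 0.00503). With normexp background correction it was -1.34, still called.

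Gmnn, which encodes the licensing inhibitor geminin, had levels of -0.15, -0.13, -0.44 and -0.58 in Sca-1+ replicates, against 1.48, 1.19, 1.14 and 0.35 in Sca-1- replicates. The groups did not overlap, and replicate 4 was the lowest in each. Gmnn fell by 1.37 ± 0.25 SE (limma adjusted p = 0.0345), and Cdt1, the loading factor that geminin binds, fell by 1.44 (limma adjusted p = 0.0353). The Cdt1 call ended with quantile normalization (adjusted p = 0.0596), with scaling on detected probes (0.05003) and in limma on the deposited table (0.0619). Both the loading factor and its inhibitor were lower.

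The ORC genes gave smaller values. Orc3 levels were 2.93, 3.00, 2.82 and 3.23 in Sca-1+ replicates, against 3.03, 2.94, 2.77 and 3.28 in Sca-1- replicates. The groups overlapped fully, and replicate 4 was the highest in both. The Orc3 difference was -0.0048 (95% confidence interval -0.36 to 0.35), and its sign turned with quantile normalization, with scaling on detected probes and in the deposited table. Orc2, Orc4 and Orc5 had differences of -0.24, -0.04 and 0.13, all with intervals that included 0. Orc6 had a difference of -0.74, with limma adjusted p = 0.0533 unblocked and 0.0292 with the slide as a block. Orc2, Orc3, Orc4 and Orc5 were not called under any of the 25 alternatives run. The difference between the ORC genes and the loaders was not tested.

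Of 8 genes that activate the loaded helicase, 3 were called lower (median -1.09) and blocking by slide gave 5. The median of this role was -0.56 with normexp and -0.84 with all probes of a gene averaged. Mcm10, which is needed to start unwinding, had levels of 0.06, -0.38, -0.94 and -0.60 in Sca-1+ replicates, against 2.10, 1.67, 1.58 and 1.20 in Sca-1- replicates (chromosome 2, 4911785 to 4911844, mm9). All Sca-1+ samples lay below all Sca-1- samples. Mcm10 fell by 2.11 ± 0.26 SE (4.30-fold lower, limma adjusted p = 0.00654).

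Subunits of GINS, the clamp-shaped complex that joins MCM and Cdc45, differed in their values. Gins1 had levels of -0.54, -0.94, -1.61 and -1.16 in Sca-1+ replicates, against 1.53, 1.32, 1.15 and 0.50 in Sca-1- replicates. The groups did not overlap. Gins1 fell by 2.19 ± 0.29 SE (4.56-fold lower, limma adjusted p = 0.00789), and Gins2 fell by 1.58. Gins3 had levels of 5.69, 6.03, 5.85 and 4.91 in Sca-1+ replicates, against 5.83, 5.98, 6.08 and 5.03 in Sca-1- replicates. Its groups overlapped, and replicate 4 was the lowest in both. The Gins3 difference was -0.11 (95% confidence interval -0.81 to 0.60) and that of Gins4 was -0.22 (-0.50 to 0.05), and neither was called under any alternative. The interval of Gins1, -2.84 to -1.54, did not overlap those of Gins3 and Gins4, and the difference between subunits was not tested.

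The S phase kinase gene Cdc7 had a difference of -1.20 (95% confidence interval -2.54 to 0.13), and replicate 4 was far below the other replicates in both groups. Its limma adjusted p was 0.651, and 0.0235 with the slide as a block. A second Cdc7 probe, detected on all 8 arrays, gave -0.20, so the 2 probes differ in size. Dbf4, its activating partner, had a difference of -0.34 and was not called. Cdc45 had a difference of -0.98, with adjusted p = 0.119 in limma and 0.0235 with the slide as a block.

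Polymerase alpha-primase lays down the primers for DNA synthesis, and 3 of its 4 genes were lower (median -1.13). The median was -0.78 with normexp and -1.36 with only genes well above background on all 8 arrays. Prim1, the catalytic primase subunit, had levels of 1.34, 1.63, 1.30 and 1.53 in Sca-1+ replicates, against 2.97, 2.98, 2.61 and 2.67 in Sca-1- replicates (chromosome 10, 127466952 to 127467011, mm9). No sample of either group came near the other group. Prim1 fell by 1.36 ± 0.15 SE (2.56-fold lower, limma adjusted p = 0.00504). Prim2, the large primase subunit, had levels of -3.12, -2.69, -3.12 and -2.81 in Sca-1+ replicates, against -2.10, -1.77, -1.94 and -2.31 in Sca-1- replicates. It fell by 0.90 ± 0.17 SE with groups that did not overlap (limma adjusted p = 0.0396), a call that ended with normexp (-0.37, adjusted p = 0.0857) and with a trended, robust spread. Pola1, the catalytic polymerase subunit, fell by 1.48 (adjusted p = 0.0481).

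Pola2, the accessory subunit, had levels of -3.40, -2.65, -2.76 and -1.76 in Sca-1+ replicates and -2.17, -2.71, -2.11 and -1.43 in Sca-1- replicates. The groups overlapped, and replicate 4 was the highest in each. Its difference was -0.53 (95% confidence interval -1.39 to 0.33).

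Among the genes of the main fork polymerases, Pole stood lowest. It encodes the catalytic subunit of polymerase epsilon, which copies the leading strand, and its levels were 0.08, -0.04, -0.38 and 0.08 in Sca-1+ replicates, against 2.41, 1.95, 1.59 and 1.65 in Sca-1- replicates (chromosome 5, 110766375 to 110766434, mm9). The groups did not overlap. Pole fell by 1.97 ± 0.21 SE (3.91-fold lower, limma adjusted p = 0.00503).

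Pole2, the next subunit, had levels of -2.56, -3.06, -3.21 and -1.71 in Sca-1+ replicates and -1.38, -1.54, -1.64 and -1.06 in Sca-1- replicates. Replicate 4 was the highest in both groups, which did not overlap. Its difference of -1.23 ± 0.32 SE gave adjusted p = 0.153 in limma and 0.0180 with the slide as a block. The genes of polymerase delta, which makes the lagging strand, gave smaller values. Pold3 had levels of 2.58, 2.72, 2.86 and 3.14 in Sca-1+ replicates, against 2.84, 2.82, 2.48 and 3.33 in Sca-1- replicates, with groups that overlapped. Its difference was -0.04 (95% confidence interval -0.52 to 0.43), that of Pold2 was -0.20 and that of the catalytic subunit gene Pold1 was -0.44 (-0.73 to -0.16), and none was called in either fit.

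**Figure D2:**
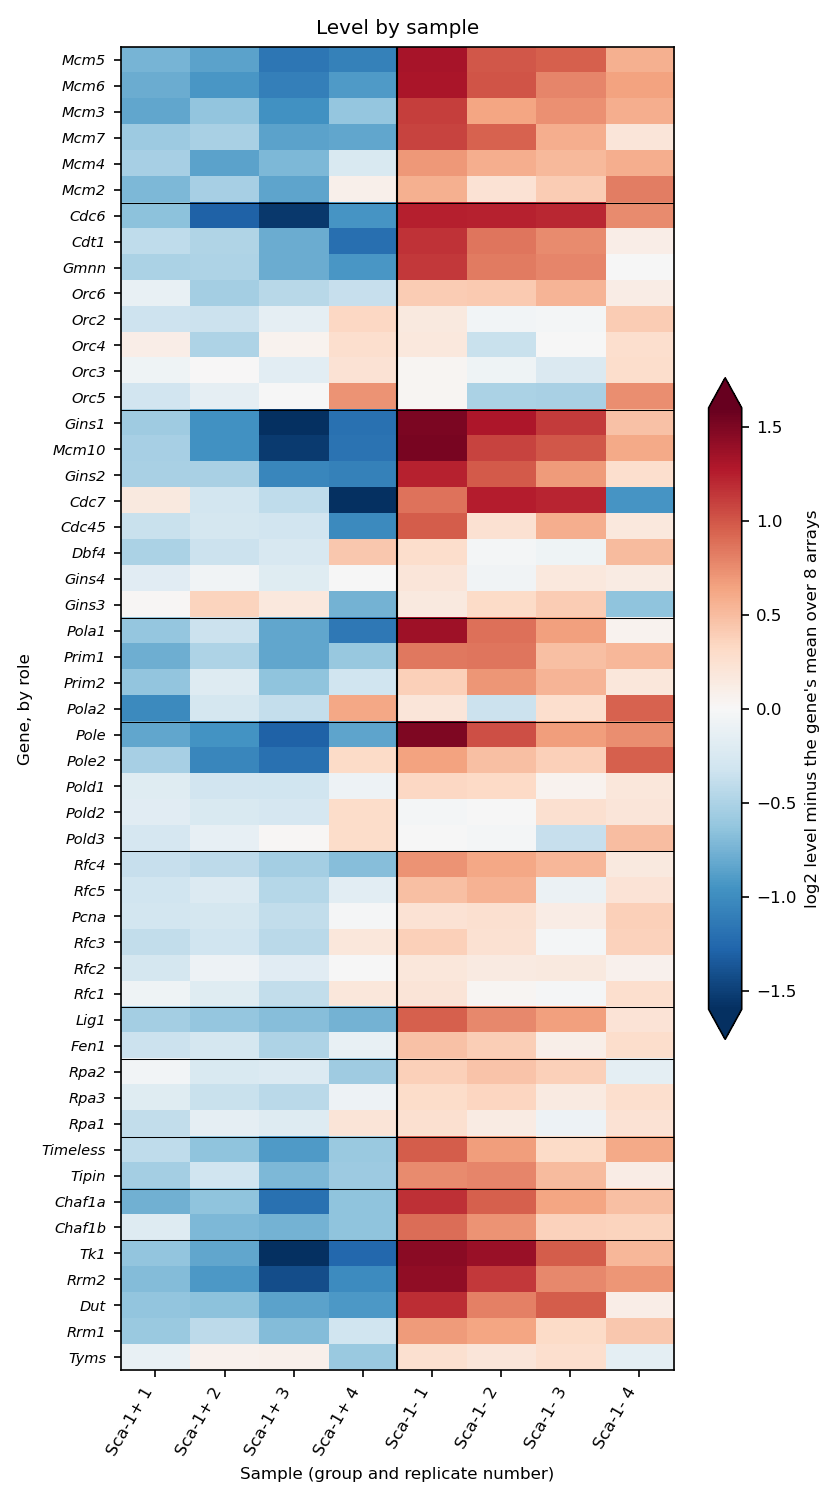
Level of each of 51 replication genes (rows, by role) in each sample (columns, Sca-1+ replicates 1 to 4 left of Sca-1- replicates 1 to 4), as log2 level minus the gene's mean over the 8 arrays (colour, blue low and red high). Most rows are blue in Sca-1+ and red in Sca-1- samples, while others, among them Orc3, Orc4, Gins3 and Pold3, show little difference between the groups.

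Genes of the sliding clamp and its loader had smaller differences. Of 6 genes 1 was called lower, with a median of -0.49, and blocking by slide gave 3. Rfc4, a subunit of the loader, had levels of 1.81, 1.76, 1.64 and 1.50 in Sca-1+ replicates, against 2.90, 2.80, 2.71 and 2.34 in Sca-1- replicates. The groups lay apart, and within them replicate 4 was the lowest. Rfc4 fell by 1.01 ± 0.16 SE (2.02-fold lower, limma adjusted p = 0.0157). Pcna, the clamp itself, had levels of 4.65, 4.67, 4.55 and 4.93 in Sca-1+ replicates, against 5.19, 5.21, 5.07 and 5.34 in Sca-1- replicates. The Pcna difference was small and alike on all slides (-0.53, -0.54, -0.52 and -0.40). It was -0.50 ± 0.13 SE, with adjusted p = 0.163 in limma and 0.0220 with the slide as a block.

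Rfc1, the large loader subunit, had levels of 3.69, 3.56, 3.36 and 3.94 in Sca-1+ replicates, against 3.96, 3.79, 3.73 and 4.03 in Sca-1- replicates. Each Sca-1+ sample lay below the Sca-1- sample of its slide, but the groups overlapped. The Rfc1 difference was -0.24 (95% confidence interval -0.60 to 0.12). Rfc5 (-0.58) joined Rfc4 and Pcna in the blocked fit, with adjusted p = 0.223 without and 0.0426 with the block, and Rfc3 (-0.48) and Rfc2 (-0.27) were called in neither.

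Lig1, the ligase that seals Okazaki fragments, had levels of 2.48, 2.41, 2.35 and 2.27 in Sca-1+ replicates, against 3.99, 3.79, 3.68 and 3.25 in Sca-1- replicates. The Sca-1+ samples lay close together, and every Sca-1- sample was above them. Lig1 fell by 1.30 ± 0.17 SE (2.46-fold lower, limma adjusted p = 0.00812). Fen1, the flap nuclease that trims the fragments, had levels of 4.24, 4.30, 4.08 and 4.46 in Sca-1+ replicates, against 5.05, 4.97, 4.68 and 4.86 in Sca-1- replicates. The groups did not overlap, and the Fen1 difference of -0.62 ± 0.14 SE gave adjusted p = 0.0901 in limma and 0.0235 with the slide as a block.

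Of the 3 genes of replication protein A, which coats single-stranded DNA, 0 were called in the unblocked limma fit, although 2 had an unadjusted p under 0.05. Rpa3 had levels of 2.90, 2.74, 2.66 and 3.01 in Sca-1+ replicates and 3.38, 3.44, 3.24 and 3.36 in Sca-1- replicates. Rpa2 had levels of 1.14, 0.94, 0.96 and 0.61 in Sca-1+ replicates and 1.56, 1.63, 1.56 and 1.03 in Sca-1- replicates. Both had a difference of -0.53, and the groups overlapped for Rpa2 through its replicate 4 and not for Rpa3. With the slide as a block both passed (adjusted p = 0.0306 for Rpa3 and 0.0283 for Rpa2, against 0.115 and 0.341 without). Rpa1, the large subunit, had levels of 4.60, 4.85, 4.79 and 5.20 in Sca-1+ replicates and 5.25, 5.12, 4.91 and 5.22 in Sca-1- replicates. Its groups overlapped, and the difference was -0.27 (95% confidence interval -0.64 to 0.10).

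The fork protection genes Timeless and Tipin, whose products travel with the fork and keep unwinding and synthesis coupled, were both lower. Timeless had levels of 1.14, 0.91, 0.64 and 0.96 in Sca-1+ replicates, against 2.52, 2.22, 1.85 and 2.15 in Sca-1- replicates. Tipin had levels of 2.52, 2.74, 2.33 and 2.47 in Sca-1+ replicates, against 3.81, 3.84, 3.56 and 3.17 in Sca-1- replicates. Neither gene had overlapping groups. Timeless fell by 1.27 ± 0.18 SE (2.42-fold lower, limma adjusted p = 0.00976) and Tipin fell by 1.08 ± 0.18 SE (2.12-fold lower, adjusted p = 0.0235).

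Chaf1a and Chaf1b, subunit genes of chromatin assembly factor 1, which places histones on new DNA, were lower too. Rbbp4, a further subunit gene counted here among the other replication genes, had a difference of -0.28 and was called in neither fit. Chaf1a had levels of -0.06, 0.07, -0.48 and 0.06 in Sca-1+ replicates, against 1.88, 1.66, 1.33 and 1.19 in Sca-1- replicates. Chaf1b had levels of 1.53, 1.00, 0.97 and 1.08 in Sca-1+ replicates, against 2.62, 2.44, 2.09 and 2.08 in Sca-1- replicates. The groups lay apart for both, with Sca-1- replicate 1 the highest. Chaf1a fell by 1.62 ± 0.20 SE (3.07-fold lower, limma adjusted p = 0.00663) and Chaf1b fell by 1.16 ± 0.19 SE (2.24-fold lower, adjusted p = 0.0194).

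Of 5 genes that supply nucleotides 4 were called lower, with a median of -1.53. Rrm2, the regulated small subunit of ribonucleotide reductase, had levels of 2.19, 1.97, 1.46 and 1.87 in Sca-1+ replicates, against 4.30, 4.01, 3.64 and 3.59 in Sca-1- replicates (chromosome 12, 25398824 to 25398883, mm9). Tk1, the thymidine kinase of the salvage pathway, had levels of 1.10, 0.90, 0.11 and 0.48 in Sca-1+ replicates, against 3.18, 3.11, 2.70 and 2.26 in Sca-1- replicates. In both genes Sca-1+ replicate 3 was the lowest sample and the groups did not overlap. Rrm2 fell by 2.01 ± 0.22 SE (4.04-fold lower, limma adjusted p = 0.00503) and Tk1 fell by 2.16 ± 0.28 SE (4.48-fold lower, adjusted p = 0.00774).

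Dut, which removes dUTP, fell by 1.53, and Rrm1, the large reductase subunit, fell by 1.02. Tyms, which makes thymidylate, was not called. Its levels were -2.22, -2.02, -2.01 and -2.69 in Sca-1+ replicates, against -1.84, -1.89, -1.83 and -2.24 in Sca-1- replicates. Each Sca-1+ sample was below its slide partner, but Sca-1- replicate 4 lay among the Sca-1+ samples. The Tyms difference was -0.28 (95% confidence interval -0.72 to 0.15), and it was not called under any alternative.

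The median difference was negative on every slide and nearest to 0 on slide 4. Within slides 1 to 4 the median over the 51 genes was -1.18, -1.04, -1.12 and -0.73, against 0.07, -0.04, 0.02 and 0.01 over all tested genes. Of the 51 genes 44 were lower on all 4 slides, including all 25 called genes. Over all 19818 tested genes, 7167 had the same sign on all 4 slides, in either direction. Those lower on all 4 slides were not counted apart. On slide 4 the difference was the least negative of the 4 slides for 40 genes, again including all 25 called genes. That count was not made over all tested genes. Whether the day or the extraction protocol of slide 4 had a part in the smaller differences there was not tested. The Sca-1+ sample lay at the same array position on every slide, as did the Sca-1- sample, so position and group cannot be told apart.

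**Figure D3:**
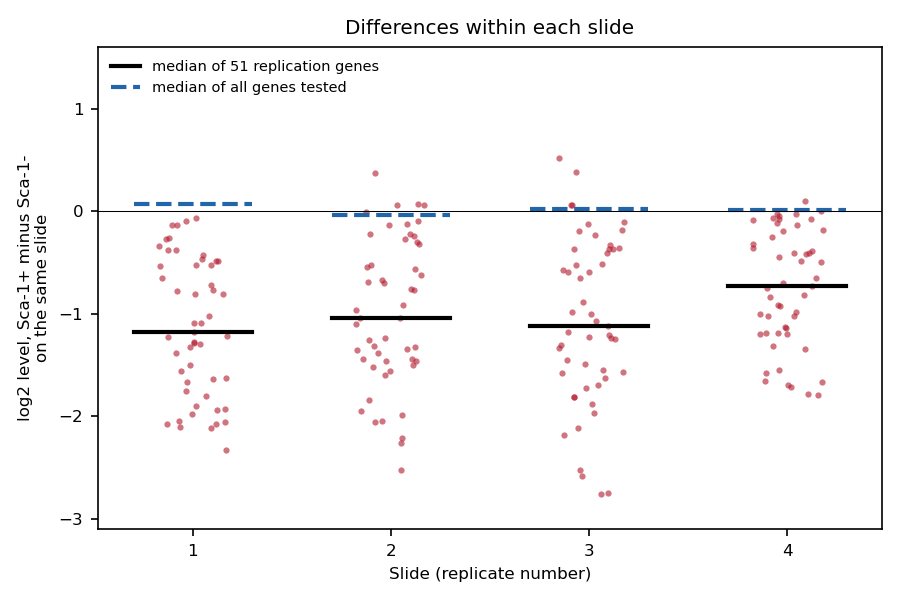
Difference of log2 level, Sca-1+ minus Sca-1- on the same slide (y axis), for 51 replication genes (points) on slides 1 to 4 (x axis). Black bars mark the median of the 51 genes (-1.18, -1.04, -1.12 and -0.73) and dashed blue bars that of all tested genes, which lies near 0.

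Of 36 further replication genes 35 were tested, and 9 were lower and 0 higher (median -0.40). Dscc1, a subunit of an alternative clamp loader, was 3.88-fold lower, at -3.02 ± 0.20 in Sca-1+ and -1.06 ± 0.41 in Sca-1- samples (SD, n = 4 each, limma adjusted p = 0.00520), a difference of -1.96 that was -0.98 with normexp. Asf1b, a histone chaperone, averaged 1.25 ± 0.26 in Sca-1+ and 3.20 ± 0.38 in Sca-1- samples (SD, n = 4 each, adjusted p = 0.00520). Ticrr, an origin firing factor, fell by 2.23 (adjusted p = 0.00654), and Dtl, which directs the destruction of Cdt1 during S phase, fell by 1.56 (adjusted p = 0.00767). The Ticrr call ended when all its probes were averaged (-1.77, limma adjusted p = 0.0617). The other 5 called genes were Chtf18, Dck, Recql4, Atad5 and Clspn, at -1.69, -1.35, -1.29, -1.23 and -1.17, named to complete the count. Dctpp1 and Pole4 had the differences nearest to 0, both 0.01. With the slide as a block 16 were lower and 1 was higher, Rrm2b, a reductase subunit used outside S phase (0.41). Orc1 was not tested: its probe exceeded background clearly on 0 Sca-1+ arrays and 2 Sca-1- arrays.

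Mitosis genes were lower by more. Of 35 tested, 31 were lower and 0 higher (33 lower with the slide as a block), with a median of -2.02, against 25 of 51 and -1.01 for the licensing and fork genes. Of the 35, 32 were well above background on all 8 arrays, 29 of them called, while 1 called gene was so on 0 Sca-1+ arrays and 1 on a single Sca-1+ array. The difference between the lists was not tested.

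**Figure D4:**
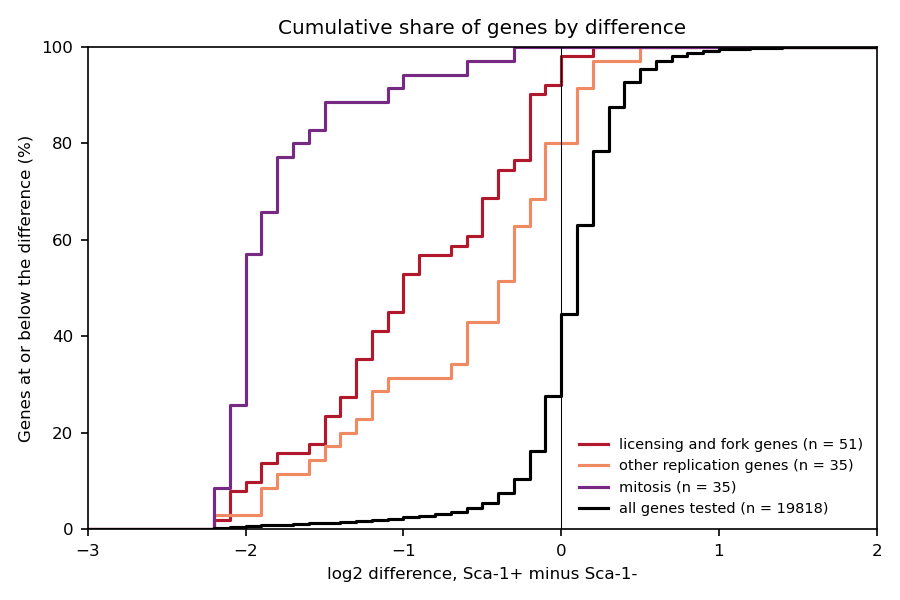
Cumulative share of genes (y axis, %) at or below a given log2 difference, Sca-1+ minus Sca-1- (x axis), for the 51 licensing and fork genes, 35 other replication genes, 35 mitosis genes and all 19818 tested genes. The medians are -1.01, -0.40, -2.02 and 0.03.

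Among stem and progenitor markers, some moved with these genes. Of 11 tested, 2 were lower, Cd93 (-1.98) and Sox4 (-1.19), and 0 higher. Blocked by slide, Csf1r, the receptor for macrophage colony-stimulating factor, also passed as lower (-1.19, adjusted p = 0.171 in limma without and 0.00637 with the block). The summed level of the listed markers, in multiples of the array's 75th percentile, was 53.1 to 55.9 in Sca-1+ and 70.5 to 75.6 in Sca-1- samples. Such a sum of unlogged levels weighs bright markers most and does not describe the whole list. Mean log2 levels in Sca-1+ and Sca-1- samples were 3.38 and 4.57 for Csf1r and 1.42 and 3.40 for Cd93. Il7r went the other way, at 4.87 and 4.52. Of the 11 tested differences 8 were negative and 3 positive. Every one of the 12 listed markers was well above background on at least 1 array, and their part in the lower replication genes was not tested. In the other lists, 10 of 12 conventional DC, 4 of 10 B cell and 5 of 11 T and NK cell genes were tested. For monocytes, macrophages and neutrophils 6 of 12 were tested, for basophils and mast cells 6 of 7, and for erythroid cells and megakaryocytes 2 of 9. These lists had 0 called genes in limma, with 3 conventional DC and 1 B cell gene at an unadjusted p under 0.05. Blocking by slide called 2 conventional DC genes lower and 3 higher. Where few genes were tested, 0 calls say little about that cell type. The summed level of the B cell list was 162.4 to 186 in Sca-1+ and 118 to 162.0 in Sca-1- samples, and that of the T and NK cell list 25.6 to 27.5 in Sca-1+ and 19.6 to 25.4 in Sca-1- samples. The brightest B cell marker, Blnk, weighs most in the B cell sum. Its mean log2 level was 7.39 in Sca-1+ and 7.04 in Sca-1- samples. Ms4a1, Pax5 and Igll1 (B cells), Cd3d, Cd3g, Ncr1, Klrb1c and Gzmb (T and NK cells) and Klf1 and Alas2 (erythroid cells) were not well above background on any array.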

How the data were processed

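Expression was measured on 8 single-colour Agilent arrays. The authors extracted spot intensity using Agilent Feature Extraction (10.7.3.1), and probes are placed on mm9, per the file headers. Its processed intensity, corrected for background by the software per the file headers, was the starting point. A deposited table of log2 values by the authors (median 3.90 in each column, 22 missing values) served as an alternative. Its scaling and the reason for missing values are not given in the sources used here.

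Of 62976 spots, 59305 on non-control positions covered 55681 probes, and between 105 and 162 outlier spots were dropped from each array. Repeated spots were averaged as log2 values before the 75th percentile of the array was taken off. The brightest probe stood for a gene, and testing required it to exceed background clearly on 4 or more of the 8 arrays. The comparison used limma 3.58.1 (R 4.3.3) with lmFit and eBayes, two-sided and without a block, and Benjamini-Hochberg adjustment over the tested genes. The fit was first tested on simulated data. The number of arrays limits the precision.

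Replicate numbers occur in both groups and mark the slide, per the file headers. Same-numbered samples deviated together, with correlations of 0.44, 0.43, 0.64 and 0.89, each over 0.1 (0.12 to 0.54 between different numbers among replicates 1 to 3), so the blocked value is given where it changes a call. The 51 genes, their roles and the gene lists were chosen with earlier results of these data known. Every one of the 51 is accounted for. Per-sample values are given for the genes with the 2 smallest and the largest p in each role, and the other replication genes with the 4 smallest and 2 largest p are named. Alternatives covered normalization, background correction, the probe filter, the probe of a gene, the deposited table, array weights, trend, blocks and omitted samples. A percentile taken over spots was added after seeing the data. Of 12 further probes for these genes 11 were detected (8 on all 8 arrays), all 11 with a difference of like sign. Whether probes lie in coding or untranslated exons was not analysed here.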

Additional observations from a re-analysis of the deposited data

Results flagged for a closer look

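Among 102 sets of 4 levels (51 genes in 2 groups), 5 held a sample far from the other 3, by Dixon's test at 95%, and chance alone flags about 1 in 20. All 5 samples were replicate 4, whose slide was scanned on another day with another extraction protocol, and the part of these in the values was not tested. Cdc45 was at -2.89 in Sca-1+ replicate 4, against -2.23 to -2.15 in the other Sca-1+ samples. Pold2 was at 1.13 in Sca-1+ replicate 4, against 0.58 to 0.67. Cdc6 was at -0.61 in Sca-1- replicate 4, against -0.16 to -0.13 in the other Sca-1- samples. Rpa2 was at 1.03 in Sca-1- replicate 4, against 1.56 to 1.63, and Tyms at -2.24, against -1.89 to -1.83.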

How the results depend on the processing

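The 51 genes gave 0 higher calls under every alternative run, and 23 to 37 lower calls except where the filter on dim probes was dropped (15) or samples were omitted (14 to 26 for 1 sample, 0 to 34 for both samples of a number). Their median was -0.65 with normexp and -0.73 within slide 4, and -1.10 to -0.93 in the omissions. With the replicate block 25 of the 25 calls were kept and 10 were added. The replicate block gave 416 genes higher and 817 lower in place of 25 and 314, and 17 other replication genes in place of 9. The slide as a random block gave 926, 1367 and 21, array weights 509, 1011 and 15, and no filter 6, 176 and 5, while normexp gave 49 higher. One-sample omissions gave 7 to 89 genes higher, 156 to 374 lower and 6 to 9 other replication genes, and omissions of both samples 1 to 264, 0 to 615 and 0 to 10. Orc3 turned positive with quantile normalization (0.029), scaling on detected probes (0.0047), the deposited table (0.028) and the percentile over spots (0.014). In omissions the sign turned for Orc3 (-0.084 to 0.087), Orc4 (-0.16 to 0.12), Orc5 (-0.087 to 0.40), Gins3 (-0.34 to 0.13), Pold3 (-0.18 to 0.11), Dctpp1 (-0.074 to 0.11) and Pole4 (-0.063 to 0.082), none of which was called in any omission. Omissions leave fewer samples, and the cause of the other changes was not tested. Standard errors were largest for Cdc7 (0.58), Pola2 (0.38) and Orc5 (0.33), and Pola2 was under the background mark on 1 Sca-1+ array.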
